A study of Mus musculus with 30 samples.

Results

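Genes of the Paneth cell were followed through all 30 colon libraries of the study. The 5 genes, Defa24, Gm15284, Lyz1, Ang4 and Itln1, were taken by gene name from the deposited table of gene counts, which holds 46078 genes, and each name matched 1 row. All 5 passed the filter on low counts, as did 16261 genes in total. The genes were chosen by their difference between AOM/DSS and vehicle in these libraries, so that difference is described here without a test. The questions were whether the genes appeared in few or in all treated colons, whether they went with Notum, and whether the sexes differed.

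The libraries came from wild-type C57BL/6J mice that were 5 to 10 weeks old at the start, with 5 mice in each of 6 groups and 1 library per mouse. Vehicle-treated females and males received saline i.p. and were killed at week 9. The AOM/DSS groups of each sex received azoxymethane (AOM, a carcinogen) once at 10 mg/kg i.p. and 3 cycles of 2.5% dextran sulfate sodium (DSS, an irritant of the colon) in drinking water, and were killed at 9 or 15 weeks. There was no vehicle group at 15 weeks, so treatment and time cannot be told apart there. RNA was taken from the scraped epithelial layer and sequenced as poly(A)-selected stranded libraries of 9265804 to 30806392 gene counts. One library stood apart. Male vehicle replicate 1 had a summed level of 5553 CPM (counts scaled to library size) over 10 smooth muscle and fibroblast genes, against at most 469.8 CPM in any other library, and the fits of Ang4 and Itln1, of the sexes and of the genes of other cells are given without it as well.

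Paneth cells sit at the base of small-intestinal crypts, where they store antimicrobial proteins in granules and supply growth signals to neighbouring stem cells. Their maturation needs Wnt signalling. The healthy mouse colon has few or none, and their appearance there during inflammation or tumour formation is called Paneth cell metaplasia. Defa24 and Gm15284 encode alpha-defensins, small antimicrobial peptides that are made in mice almost only by Paneth cells, and Lyz1 encodes the lysozyme of Paneth cell granules. Ang4 encodes angiogenin 4, a microbicidal ribonuclease, and Itln1 encodes intelectin 1, a lectin that binds microbial sugars. Goblet cells and other colon secretory cells can also make Ang4 and Itln1. Notum is a secreted enzyme that removes the lipid from Wnt proteins and is itself switched on by Wnt signalling.

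The 2 alpha-defensins are shown first because they are near copies, which limits how their reads can be assigned. On GRCm38 they lie on chromosome 8, Gm15284 at chr8:21134642-21135598 and Defa24 at chr8:21734494-21735471, both on the plus strand. Their coding sequences of 282 bases differ at 4 positions (98.6% identity), shown in capitals.
Defa24: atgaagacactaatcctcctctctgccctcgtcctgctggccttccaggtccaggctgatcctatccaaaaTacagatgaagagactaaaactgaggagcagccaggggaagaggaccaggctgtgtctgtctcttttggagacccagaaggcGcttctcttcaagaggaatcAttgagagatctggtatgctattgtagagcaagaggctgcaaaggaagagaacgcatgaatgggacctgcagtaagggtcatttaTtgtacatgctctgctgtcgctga
Gm15284: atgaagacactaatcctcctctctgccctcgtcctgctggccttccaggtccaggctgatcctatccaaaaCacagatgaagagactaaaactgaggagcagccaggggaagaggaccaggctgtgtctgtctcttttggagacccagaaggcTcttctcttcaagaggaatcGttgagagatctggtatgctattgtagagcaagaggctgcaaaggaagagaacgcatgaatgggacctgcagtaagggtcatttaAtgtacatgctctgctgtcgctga
Of the 51-base windows of their transcripts, 51 bases being the read length, 72.9% in Defa24 and 48.6% in Gm15284 occur in no other gene. A read from a shared window could have come from either gene or from another alpha-defensin, so the split between the pair is uncertain. Lyz1, at chr10:117287796-117292868 on the minus strand, has a similar partner in Lyz2, the lysozyme of macrophages. The coding sequences of 447 bases differ at 22 positions (95.1% identity), and the first 300 bases are printed, with the 20 differences they hold in capitals.
Lyz1: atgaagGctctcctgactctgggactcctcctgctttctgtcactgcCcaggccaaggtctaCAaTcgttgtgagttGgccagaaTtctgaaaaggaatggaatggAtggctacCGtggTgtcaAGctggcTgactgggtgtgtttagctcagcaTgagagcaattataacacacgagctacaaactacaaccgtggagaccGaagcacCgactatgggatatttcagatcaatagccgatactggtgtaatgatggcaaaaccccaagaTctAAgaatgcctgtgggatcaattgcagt
Lyz2: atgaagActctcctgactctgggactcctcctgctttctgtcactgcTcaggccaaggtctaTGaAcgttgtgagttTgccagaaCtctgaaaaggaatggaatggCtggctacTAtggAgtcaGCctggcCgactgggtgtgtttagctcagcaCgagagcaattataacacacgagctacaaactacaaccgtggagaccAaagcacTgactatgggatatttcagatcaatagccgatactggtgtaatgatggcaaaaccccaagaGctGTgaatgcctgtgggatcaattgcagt
In Lyz1, 84.6% of the windows occur in no other gene. Ang4, at chr14:51763878-51773590, and Itln1, at chr1:171518122-171535294, have 95.6% and 99.1% such windows, so their counts are hardly touched by copies. Notum lies at chr11:120653788-120661175.

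Lyz1 was strongly raised in some treated colons and at the vehicle level in the others. In vehicle-treated females Lyz1 was at 5.35, 1.74, 0.370, 3.80 and 0.533 CPM, and in vehicle-treated males at 7.14, 5.86, 1.46, 5.70 and 3.99 CPM. Lyz1 at 9 weeks was at 6.93, 67.3, 2.21, 3.23 and 5.37 CPM in females and at 68.1, 4.98, 54.8, 150.4 and 2.43 CPM in males. Lyz1 at 15 weeks was at 0.766, 1.47, 48.3, 3.24 and 17.6 CPM in females and at 2.02, 21.9, 3.82, 9.30 and 288 CPM in males. The high libraries were thus 1 female and 3 males at 9 weeks, and 2 females and 3 males at 15 weeks, while the rest overlapped the vehicle range. In all, 9 of 20 AOM/DSS libraries lay above every vehicle library, whose highest was male vehicle replicate 1, and 10 did so without that library. The lowest of the 9, male 15-week replicate 4 with 9.30 CPM, lay little above the vehicle maximum of 7.14 CPM. The fitted log2 fold change over vehicle was 3.16 (SE 0.93) at 9 weeks and 3.14 (SE 0.93) at 15 weeks, with 10 libraries on each side. At 15 weeks it fell to 1.75 when male 15-week replicate 5 was left out, and at 9 weeks to 2.19 without female 9-week replicate 2.

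**Figure D1:**
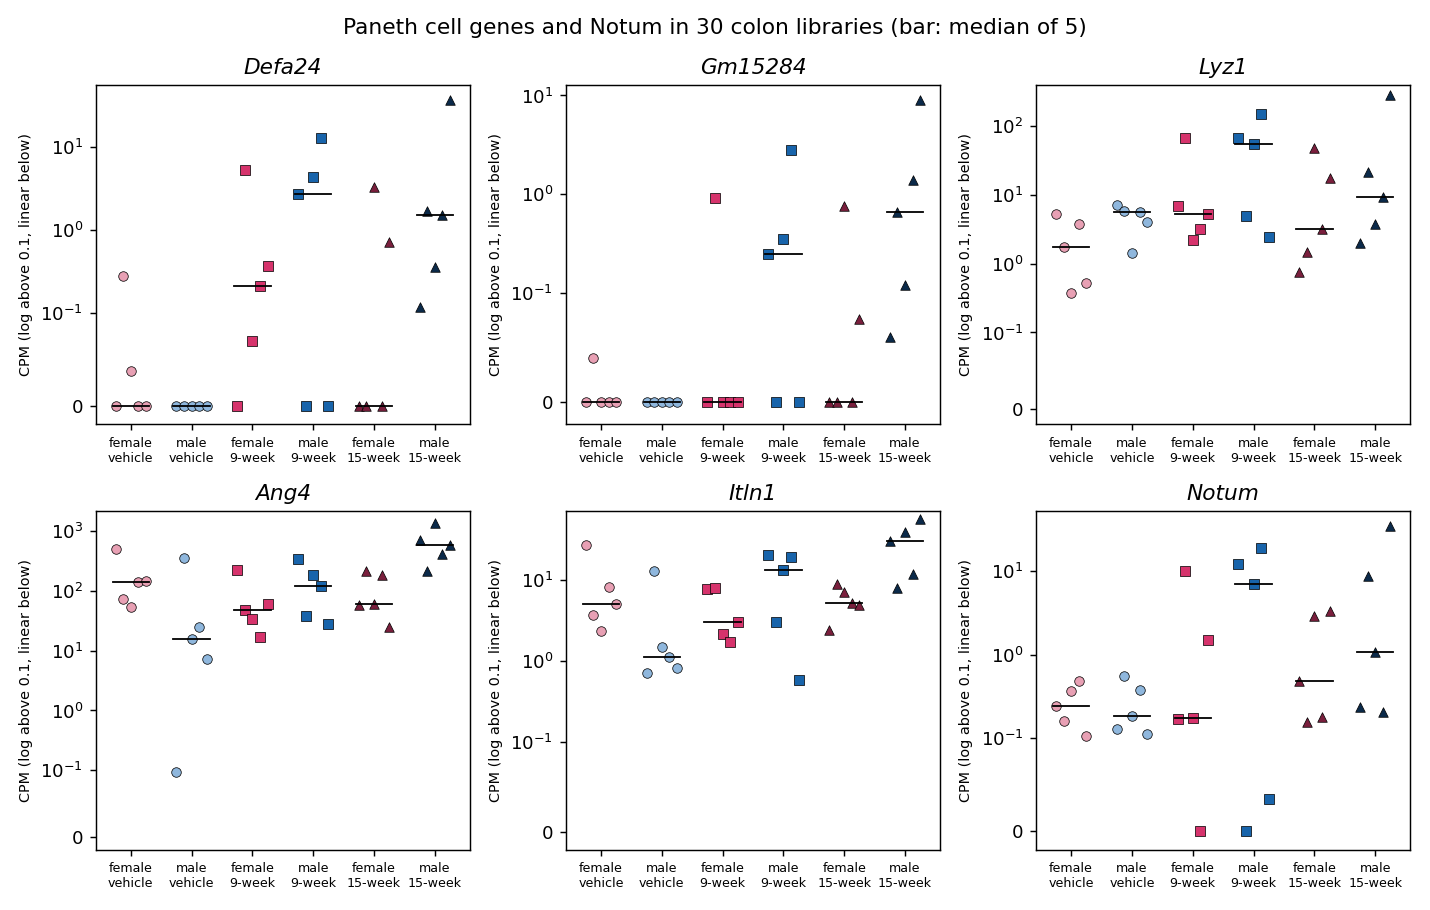
CPM of each Paneth cell gene and of Notum in the 6 groups, on an axis that is logarithmic above 0.1 CPM and linear below. Each point is a library and each bar the median of 5. Lyz1 spans 0.766 to 288 CPM within the 15-week groups, while 10 vehicle libraries lie between 0.370 and 7.14 CPM.

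The 2 alpha-defensins were almost without reads in vehicle-treated colons. Defa24 had 7 reads in female vehicle replicate 2, 1 read in replicate 3, and 0 reads in the other vehicle libraries. After 9 weeks of AOM/DSS it was at 0, 5.25, 0.0702, 0.213 and 0.376 CPM in females and at 2.76, 0, 4.41, 12.9 and 0 CPM in males. After 15 weeks it was at 0, 0, 3.29, 0 and 0.721 CPM in females and at 0.119, 1.71, 0.362, 1.52 and 36.8 CPM in males, the last from 1077 reads. The same female and 3 male libraries that were high in Lyz1 were the highest at 9 weeks, and replicate 5 of the males was by far the highest at 15 weeks. Scaled to depth, 11 of 20 AOM/DSS libraries lay above every vehicle library, from 0.362 CPM in male 15-week replicate 3 to 36.8 CPM in male 15-week replicate 5. Female 9-week replicate 4 lay just under the vehicle maximum, with 0.213 against 0.284 CPM. In males, where all vehicle libraries were at 0 reads, the pooled level was at least 201.1-fold higher at 9 weeks and at least 477-fold higher at 15 weeks, taking the vehicle group at a floor of 3 counts. Without the highest library of each group, these bounds were 85.9-fold and 42.3-fold. In females the pooled level was 16.2-fold higher at 9 weeks and 11.9-fold higher at 15 weeks than in vehicle, and 2.08-fold and 2.82-fold higher without the highest library. Floors cover counting error only, and reads were not reduced to molecules.

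Gm15284 had 1 read in a single vehicle library, female replicate 2. Gm15284 at 9 weeks had 0, 21, 0, 0 and 0 reads in females and 7, 0, 10, 92 and 0 reads in males. Gm15284 at 15 weeks had 0, 0, 19, 0 and 2 reads in females and 1, 16, 3, 20 and 263 reads in males. The libraries with reads were nearly those of Defa24, with 11 of 20 above every vehicle library, but the ratio between the pair varied. As the highest vehicle library had 1 read, the 11 include 1 read in male 15-week replicate 1. They also include 2 reads in female 15-week replicate 5 and 3 reads in male 15-week replicate 3. Among libraries with at least 10 reads of Defa24, the reads of Gm15284 ran from 7.87% of those of Defa24 in male 9-week replicate 3 to 90.9% in male 15-week replicate 4. The latter rests on 20 reads against 22. In bulk RNA a higher level can come from more cells of a type or from more RNA per cell, which cannot be told apart.

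Other alpha-defensins were in the same libraries. Of 22 further alpha-defensin genes, 7 had no read in any library, 9 had 1 to 49 reads and 6 had at least 50 reads over all libraries. Together they had 996 reads, 5 in vehicle-treated and 991 in AOM/DSS-treated colons. Male 15-week replicate 5 held 550 of them and male 9-week replicate 4 held 228. The 5 vehicle reads were all of Defa17 in female vehicle replicate 2, the vehicle library that also had 7 of the 8 vehicle reads of Defa24. Defa22 had 269 reads in all, Defa17 266, Defa21 140, Defa5 96, Defa20 75 and Gm15308 53. For Defa20 and Gm15308 none of the 51-base windows is free of copies (0.0%), and for Defa5 0.307% are, so these names stand for a family of reads rather than for single genes.

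Only 1 of the 22, Defa17, passed the filter on low counts. Its log2 fold change over vehicle was 4.49 (SE 1.46) at 15 weeks, which passed the threshold, but only 8.07% of its 51-base windows are free of copies. Its reads can be those of Defa24 and Gm15284, so this call is no evidence independent of them. Of 8 further genes listed for Paneth cells, not all of them granule proteins, 7 were tested. At 9 weeks 2 rose and 1 fell, against 5.65% of all tested genes called higher and 2.87% called lower at that time, and the median log2 fold change of the 7 was 0.36 against -0.02 over all genes. Mmp7, matrilysin, which cuts alpha-defensin precursors into active peptides, rose by a log2 fold change of 4.37 (SE 0.81, adjusted p = 0.00034, edgeR quasi-likelihood test with Benjamini-Hochberg adjustment over all 16261 genes). The RNA of Pla2g2a, a gene known for a secreted phospholipase of Paneth cell granules, rose by 2.74 (SE 0.44, adjusted p = 7.86e-05). Its protein was not measured, so a working enzyme in these mice is not shown. Mptx1, a mucosal pentraxin, fell by 2.10 (SE 0.64, adjusted p = 0.0226), and it was abundant in vehicle-treated colon, at 428 to 5599 CPM. At 15 weeks 2 of the 7 rose, Mmp7 by 3.66 (SE 0.79) and Pla2g2a by 2.33 (SE 0.44), against 3.54% of all tested genes called higher and 4.25% called lower. The 15-week calls of the 2 lists together, 3 genes, became 2 without male 15-week replicate 5, female 15-week replicate 3, male vehicle replicate 1 or female vehicle replicate 1, as Defa17 was lost, and 5 without female 15-week replicate 5 or male 15-week replicate 3, as Defa22 and Mptx1 were added. Without female vehicle replicate 4, female vehicle replicate 5 or male vehicle replicate 5, Defa22 was called in place of Defa17. Leaving out any other library except male 15-week replicate 2 gave 4 genes, with Defa22 added. Defa22 was thus not tied to the named libraries. The filter on low counts also changed, as 2 alpha-defensins were tested without male vehicle replicate 1 and 1 with all libraries. At 9 weeks Mptx1 was lost without female vehicle replicate 1. Clps, colipase, rose from 9 to 15 weeks (log2 fold change 1.16, SE 0.33, adjusted p = 0.0419), against 0.424% of all tested genes called higher.

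Mmp7 was raised in more colons than Lyz1, and most in those with high Lyz1. It was at 0.0373 to 3.89 CPM in vehicle-treated colons and at 4.27 to 40.6 CPM at 9 weeks, so that all 10 libraries of 9 weeks lay above all vehicle libraries. The 4 highest of them, at 26.2 to 40.6 CPM, were the 4 with high Lyz1, and the other 6 lay at 4.27 to 12.8 CPM. At 15 weeks Mmp7 was at 0.771 to 81.7 CPM, with 4 of 10 libraries above the vehicle range. The 3 highest there, at 81.7, 12.1 and 10.2 CPM (male replicate 5, female replicates 3 and 5), were high in Lyz1, whereas male replicates 2 and 4, which had Lyz1 above the vehicle range, had Mmp7 at 2.81 and 1.72 CPM. Of the 8 libraries highest in Mmp7, 6 were among the 8 highest in Notum. Mmp7 was also above the vehicle range in colons with 0 reads of Defa24. At 9 weeks these were female replicate 1 (4.27 CPM), male replicate 2 (11.96 CPM) and male replicate 5 (4.48 CPM). At 15 weeks it was female replicate 4 (4.71 CPM).

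Ang4 and Itln1 had another pattern. Both were present in vehicle-treated colons, and among AOM/DSS-treated colons both were highest in males at 15 weeks. In vehicle-treated females Ang4 was at 513, 72.4, 55.0, 142.2 and 148 CPM, and in vehicle-treated males at 0.0974, 354, 15.6, 25.1 and 7.35 CPM. Ang4 at 9 weeks was at 229, 48.3, 34.2, 16.8 and 60.3 CPM in females and at 341, 38.8, 185, 120.1 and 28.3 CPM in males. Ang4 at 15 weeks was at 57.9, 214, 60.04, 189 and 25.4 CPM in females and at 711, 218, 1377, 417 and 602 CPM in males. Vehicle-treated colons alone spanned a range that held all 9-week values, and only 3 of 20 AOM/DSS libraries lay above every vehicle library, all of them males at 15 weeks (replicates 1, 3 and 5). Male vehicle replicate 1, with 3 reads of Ang4, was the library with the high smooth muscle genes. The fitted log2 fold change over vehicle was -0.22 (SE 0.71) at 9 weeks and 1.14 (SE 0.72) at 15 weeks. The 9-week value changed sign, to 1.15, when male vehicle replicate 2 was left out, and the 15-week value became 2.51. Without male vehicle replicate 1 they were -0.38 (SE 0.64) and 0.98 (SE 0.65).

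Itln1 was at 26.8, 3.69, 2.37, 8.30 and 5.01 CPM in vehicle-treated females and at 0.714, 12.9, 1.50, 1.10 and 0.821 CPM in vehicle-treated males. Itln1 at 9 weeks was at 7.69, 7.87, 2.14, 1.70 and 3.06 CPM in females and at 20.2, 3.01, 13.5, 19.3 and 0.590 CPM in males. Itln1 at 15 weeks was at 2.39, 8.98, 7.06, 5.28 and 4.93 CPM in females and at 30.5, 8.08, 38.7, 11.9 and 57.3 CPM in males. The female values overlapped those of vehicle at both times. The same 3 male 15-week libraries as for Ang4 lay above every vehicle library, and 6 did so when female vehicle replicate 1 was left out. By TPM, which is scaled by transcript length, only 1 of them did. The fitted log2 fold change over vehicle was 0.35 (SE 0.58) at 9 weeks and 1.21 (SE 0.58) at 15 weeks, and became 1.20 and 2.06 without male vehicle replicate 2, and 0.22 (SE 0.58) and 1.08 (SE 0.59) without male vehicle replicate 1.

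On the TPM scale, which allows genes to be compared, the median over the 10 vehicle libraries was 47.1 TPM for Ang4, 1.40 TPM for Itln1, 1.31 TPM for Lyz1, and 0 for Defa24 and Gm15284. Itln1 and Lyz1 medians did not differ beyond their spread there, with ranges of 0.390 to 14.4 and 0.174 to 4.67 TPM. In male 15-week replicate 5, the highest library of both defensins and of Lyz1, the order was Ang4 with 486 TPM, Lyz1 with 134 TPM, Defa24 with 49.7 TPM, Itln1 with 28.8 TPM and Gm15284 with 13.3 TPM. Over the 20 AOM/DSS libraries the ranks of log2 CPM went together for Defa24 and Lyz1 (Spearman rho 0.87). Those of Ang4 and Itln1 did so too (rho 0.86). Gm15284 had a rho of 0.91 with Defa24 and 0.81 with Lyz1. For Ang4 the rho was 0.19 with Lyz1, 0.20 with Defa24 and 0.39 with Gm15284. For Itln1 it was higher, with 0.50 for Lyz1, 0.56 for Defa24 and 0.69 for Gm15284. These are descriptions over libraries that share groups, and no p is given.

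The Paneth cell genes were then set against Notum. Notum was at 0.107 to 0.556 CPM in vehicle-treated colons. It was at 0.169, 9.98, 0.176, 0 and 1.50 CPM in females at 9 weeks and at 12.2, 0, 6.94, 19.0 and 0.0347 CPM in males. Notum at 15 weeks was at 0.479, 0.157, 2.93, 0.178 and 3.30 CPM in females and at 0.237, 8.77, 1.09, 0.207 and 34.7 CPM in males. AOM/DSS-treated colons thus fell into 10 libraries above every vehicle library and 10 within or under the vehicle range, 5 and 5 at each time. The 8 libraries highest in Lyz1 were the 8 highest in Notum. Of the 9 libraries above the vehicle range in Lyz1, 8 were so in Notum, which are 8 of the 10 for Notum. For Defa24 it was 10 of 11, which were all 10 for Notum, and for Gm15284 9 of 11, which are 9 of the 10. Those 11 of Gm15284 include libraries with 1 to 3 reads. By CPM, the exception common to the 3 genes was male 15-week replicate 4. It had Lyz1 at 9.30 CPM, Defa24 at 1.52 CPM and Gm15284 at 1.38 CPM with Notum at 0.207 CPM (3 reads). By TPM its Lyz1 (3.05 TPM) lay within the vehicle range, whose highest was 4.67 TPM. Defa24 by TPM lay under its vehicle maximum of 0.378 TPM in female 9-week replicate 5 (0.315) and male 15-week replicate 3 (0.199). Both had Notum above the vehicle range. For Ang4 and Itln1 2 of the 3 libraries above the vehicle range were so in Notum, which are 2 of the 10.

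**Figure D2:**
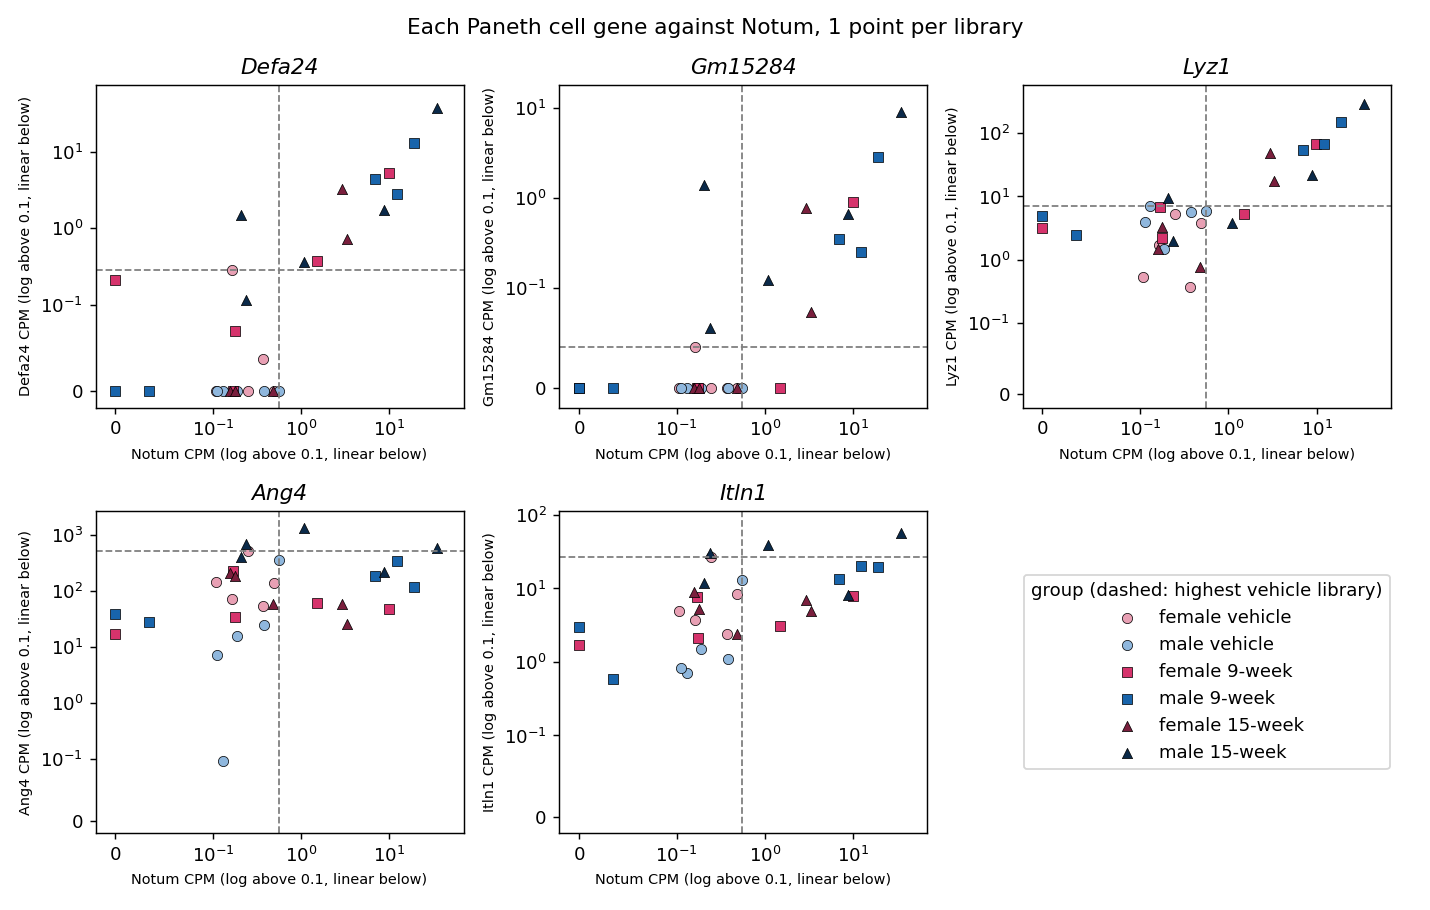
CPM of each Paneth cell gene against CPM of Notum, 1 point per library coloured by group, both axes logarithmic above 0.1 CPM and linear below, with dashed lines at the highest vehicle library. Above both dashed lines lie 8 libraries for Lyz1, 10 for Defa24 and 9 for Gm15284, but 2 each for Ang4 and Itln1. At low Notum, 1 library lies above the line of Lyz1, Defa24, Ang4 and Itln1, and 2 above that of Gm15284. For Ang4 and Itln1 it is at 711 and 30.5 CPM, against highest values of 1377 and 57.3 CPM. Male 15-week replicate 4 is the triangle at 0.207 CPM of Notum in the upper left of the Defa24 and Gm15284 panels.

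The treated colons were cut at the highest vehicle library of Notum, and the 2 sets of 10 were taken apart. No correlation with Notum over all 20 is given. The cut did not part separate clusters. Notum fell from 1.09 to 0.479 CPM across it, and from 6.94 to 3.30 CPM between neighbouring libraries above it. This split makes 10 relations whose permutation p-values (100000 permutations, two-sided) were adjusted together. Among the 10 libraries with Notum above the vehicle range, Lyz1 rose with Notum (Spearman rho 0.94, permutation p = 0.00016, adjusted p = 0.0016, Pearson r 0.93, permutation p = 0.00014, adjusted p = 0.0014). Defa24 did so as well (rho 0.83, permutation p = 0.00457, adjusted p = 0.0228, r 0.91, permutation p = 0.00036, adjusted p = 0.0018). For Gm15284 the rank correlation missed the threshold (rho 0.75, permutation p = 0.0175, adjusted p = 0.0582) and the linear one passed it (r 0.83, permutation p = 0.00266, adjusted p = 0.00887). Ang4 (rho 0.16, adjusted permutation p = 0.657, r 0.13, adjusted permutation p = 0.796) and Itln1 (rho 0.49, adjusted permutation p = 0.225, r 0.45, adjusted permutation p = 0.312) did not pass. The 2 libraries farthest from the median of Notum on the log2 scale were the 2 lowest. Without them r was 0.82 for Lyz1, 0.82 for Defa24, 0.77 for Gm15284, 0.74 for Ang4 and 0.89 for Itln1, and the rho was 0.88, 0.67, 0.60, 0.62 and 0.86 in that order. Over these 8 libraries, the highest in Notum, the rho of Lyz1 (exact permutation, adjusted p = 0.0536) and of Defa24 (exact permutation, adjusted p = 0.152) no longer passed. Among the 5 libraries of 9 weeks Lyz1 had the order of Notum, and among the 5 of 15 weeks female replicate 3 was out of that order. With 1 library left out, the rho of Defa24 no longer passed in 6 of 10 cases (0.82 without female 9-week replicate 2 or female 15-week replicate 5, 0.77 without female 9-week replicate 5, male 9-week replicate 4, male 15-week replicate 3 or male 15-week replicate 5). That of Gm15284 passed without male 9-week replicate 1 (0.83) or female 15-week replicate 3 (0.85), and that of Itln1 without male 15-week replicate 3 (0.90), while Lyz1 passed in all 10 cases. Among the 10 libraries with Notum within the vehicle range, where Notum had few reads, no gene passed (rho -0.29 to 0.62, lowest adjusted permutation p = 0.153). The split, and the choice of the 8, were made after the values were seen. The genes were chosen with earlier results of these data known, and libraries were permuted across sexes and times. The p-values are therefore descriptions of these libraries and not tests of a question set in advance.

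Wnt target genes were examined beside them. Of 13 tested, 3 rose and 2 fell at 9 weeks (5.65% and 2.87% of all tested genes), with a median log2 fold change of 0.46 against -0.02 over all genes. Apcdd1, an inhibitor of Wnt signalling, rose by 3.22 (SE 0.84, adjusted p = 0.008), Nkd1, a feedback inhibitor of the pathway, by 2.42 (SE 0.76, adjusted p = 0.0272), and Wif1, a secreted Wnt antagonist, by 2.003 (SE 0.63, adjusted p = 0.0269). Lgr5, the receptor that marks crypt base stem cells, fell by 1.21 (SE 0.35, adjusted p = 0.0176), and Ascl2, a stem cell transcription factor, fell by 0.85 (SE 0.19, adjusted p = 0.00241). At 15 weeks Apcdd1 (2.35, SE 0.82, adjusted p = 0.0484) and Wif1 (1.86, SE 0.62, adjusted p = 0.0393) rose and Lgr5 fell by 1.52 (SE 0.36, adjusted p = 0.0067), against 3.54% higher and 4.25% lower over all genes. Without male vehicle replicate 1, Apcdd1 (2.62, SE 0.88, adjusted p = 0.0503) and Wif1 (1.80, SE 0.66, adjusted p = 0.0693) no longer passed at 15 weeks, and Nkd1 did (2.78, SE 0.77, adjusted p = 0.0228). Nkd1 and Prox1, a homeobox transcription factor, each had its 8 highest treated libraries in common with Notum. This overlap was counted for these 2 of the 13 only, so it does not describe the Wnt targets as a class. Both are also among the genes of most similar rank to Defa24 or Lyz1, given below. Axin2, another of the 13, was called at neither time over the sexes, and was called lower in females alone at 9 weeks. Prox1 was at 1.48 to 2.84 CPM with vehicle and reached 19.9 CPM with AOM/DSS, with 8 libraries above the vehicle range, all of them among those of Notum. Of 11 genes for Paneth cell niche signals and regulators, 10 were tested, and Egf, a growth factor, fell at both times (by 0.68, SE 0.18, at 9 weeks and by 0.79, SE 0.19, at 15 weeks) while Dll1, a Notch ligand, fell at 15 weeks (by 0.70, SE 0.18).

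**Figure D3:**
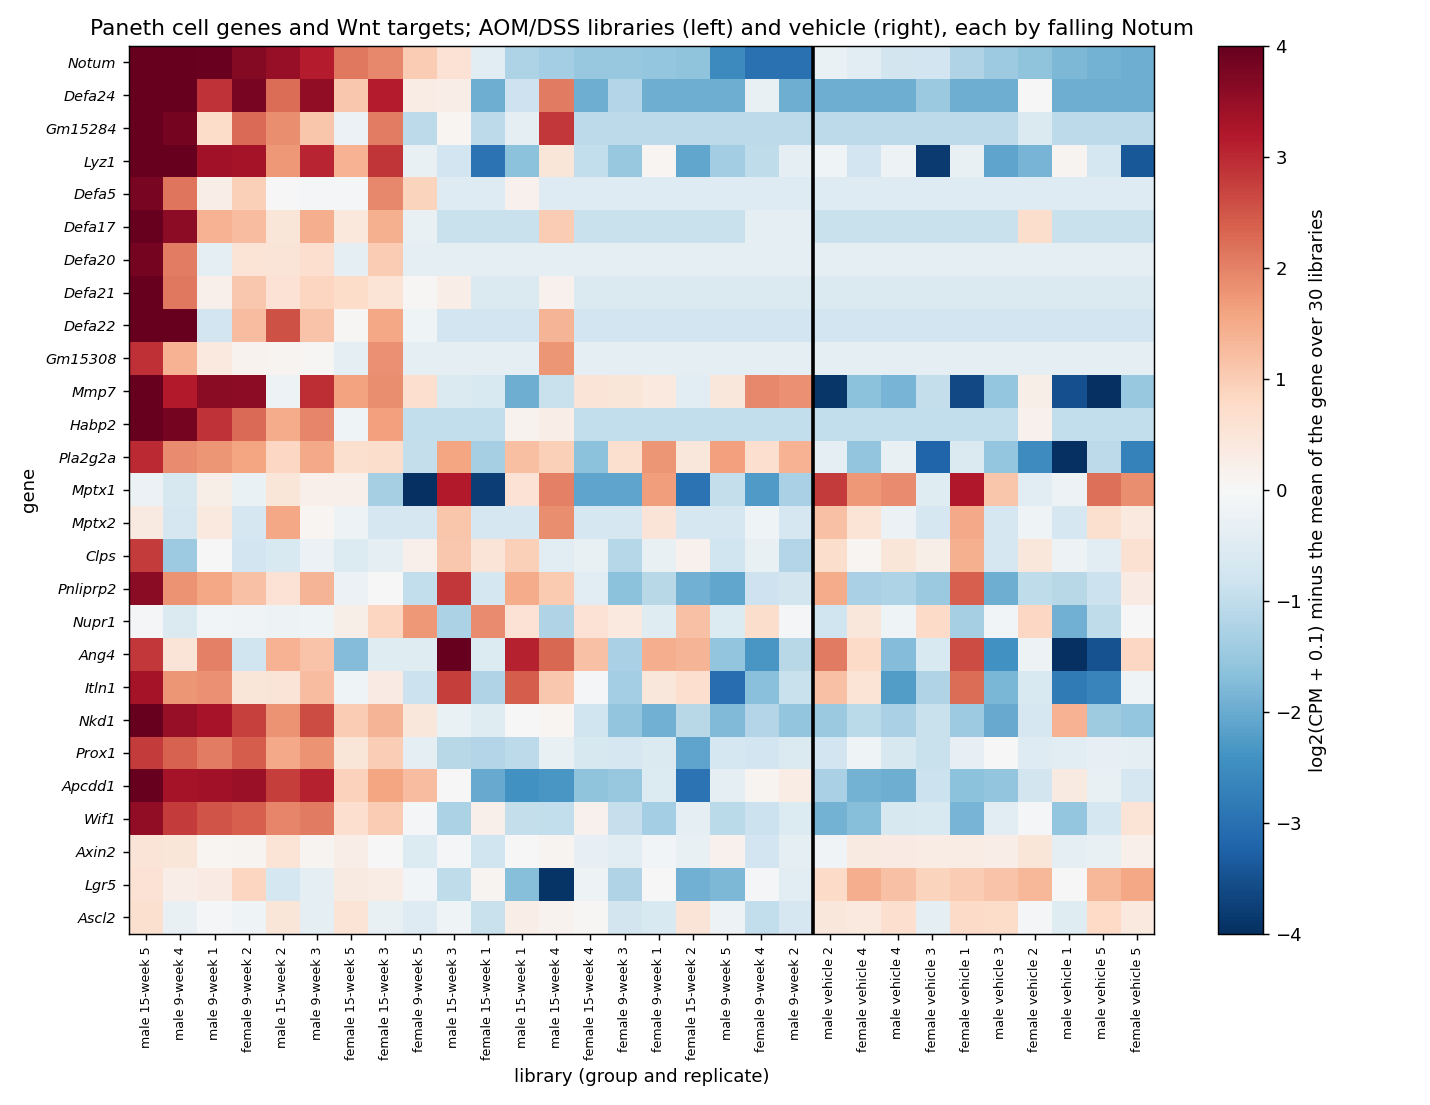
Levels of Paneth cell and Wnt target genes as log2(CPM + 0.1) minus the mean of each gene over 30 libraries, with 20 AOM/DSS libraries on the left of the black line and 10 vehicle libraries on the right, each in order of falling Notum. The alpha-defensins, Lyz1, Habp2, Nkd1, Prox1, Apcdd1 and Wif1 are red in the leftmost libraries, while Ang4, Itln1, Mptx1 and Clps vary in another order.

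The genes whose ranks over the 20 AOM/DSS libraries were most like those of each Paneth cell gene were named by a fixed rule, as a description with no p. For Defa24 they were Prss56 (Spearman rho 0.94), Nkd1 (0.92), Sbspon (0.92) and Notumos (0.92), the last an antisense transcript at the Notum locus. For Gm15284 they were Habp2 (0.91), Gm11978 (0.90), Psapl1 (0.88) and Prss56 (0.88). For Lyz1 they included Prox1 (0.96), Prss56 (0.92) and Defa17 (0.91). Prss56, a serine protease, was without reads in all vehicle libraries and reached 3.59 CPM with AOM/DSS. The genes most like Ang4 included Pla2g4c (0.97), Gsdmc2 (0.93) and Gsdmc3 (0.92), of which Gsdmc2 and Gsdmc3 are gasdermins of the gut epithelium. Itln1 was most like Hmgn1 (0.84), Pnliprp2 (0.83), Llph (0.80) and Pla2g4c (0.80). The genes named for Defa24, Gm15284 and Lyz1 and those named for Ang4 and Itln1 had none in common. With only 4 genes per list, this does not show that the patterns are separate.

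The promoters of Gm15284 and Lyz1, which moved together, are printed from RefSeq (GRCm38.p6, 250 bases before to 50 after the start site), with matches to a TCF/LEF motif or a TATA box in capitals. RefSeq names Gm15284 Defa30. Entries were matched for Gm15284, Lyz1, Ang4 and Itln1, and those of Defa24 and Notum were not matched.
Gm15284, chr8:21134400-21134699, plus strand: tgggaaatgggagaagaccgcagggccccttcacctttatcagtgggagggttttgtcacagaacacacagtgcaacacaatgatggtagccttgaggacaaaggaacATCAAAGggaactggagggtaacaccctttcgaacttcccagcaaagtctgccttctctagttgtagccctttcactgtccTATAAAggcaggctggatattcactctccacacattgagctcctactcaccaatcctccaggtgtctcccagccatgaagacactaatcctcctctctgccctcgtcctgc
Lyz1, chr10:117292819-117293118, minus strand: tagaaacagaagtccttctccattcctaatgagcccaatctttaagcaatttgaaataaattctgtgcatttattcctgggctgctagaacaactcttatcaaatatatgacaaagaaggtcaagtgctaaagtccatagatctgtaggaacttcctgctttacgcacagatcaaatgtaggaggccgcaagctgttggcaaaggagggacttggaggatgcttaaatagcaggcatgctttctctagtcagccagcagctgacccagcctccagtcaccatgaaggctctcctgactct
The TCF/LEF search used CTTTGAT or CTTTGAA or CTTTGTT or CTTTGTA on both strands, which 16.9% of 32851 promoters of this length hold, and the TATA search used TATAAA and TATATA on the strand of the gene, held by 12.5%. Gm15284 had a TCF/LEF match on the opposite strand at -142 and TATAAA at -61 from the start site, and Lyz1 had no match. Ang4 had TATATA at -29 and Itln1 at -226, and neither had a TCF/LEF match. A match is a string of letters and not a bound site.

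The sex of the mice was not used to choose the genes, so it was tested. None of the 5 genes differed between males and females in any condition (edgeR, adjusted over all genes). At 15 weeks, where 0.184% of all tested genes were called, 3 of the 5 (Itln1, Ang4 and Gm15284) had an unadjusted p under 0.05 by edgeR and 2 by DESeq2, and 0 were called by either tool. The log2 fold change of males over females was 2.36 for Itln1 (SE 0.84, adjusted p = 0.209), 2.61 for Ang4 (SE 1.07, adjusted p = 0.301), 3.68 for Gm15284 (SE 1.48, adjusted p = 0.297), 3.32 for Defa24 (SE 1.64, adjusted p = 0.415) and 2.19 for Lyz1 (SE 1.23, adjusted p = 0.492). All 5 male values of Ang4 at 15 weeks (218 to 1377 CPM) lay above all 5 female values (25.4 to 214 CPM), whereas those of Itln1 overlapped. By TPM the Ang4 values overlapped too, with 151.5 TPM in male replicate 2 against 154.03 TPM in female replicate 4. In vehicle-treated mice (0.178% called) Ang4 (-1.21, SE 1.02) and Itln1 (-1.46, SE 0.83) leaned the other way. Defa24 (-3.89, SE 3.84) and Gm15284 (-1.46, SE 2.76), almost without reads there, did so too, and Lyz1 did not (0.97, SE 1.29). The lowest adjusted p of the 5 genes was 0.352. Without male vehicle replicate 1 the values of Ang4 and Itln1 were -0.89 (SE 0.95) and -1.20 (SE 0.87). In the same contrast 5 of 10 smooth muscle and fibroblast genes were higher in males, with a median log2 fold change of 4.51, and 1 of 9 macrophage genes, Mrc1, with a median of 1.61. Without that library 0 of either list were called by edgeR, with 10 and 1 at an unadjusted p under 0.05, and the medians were 2.27 and 1.04. Their part in the sex values was not tested. At 9 weeks (0.0492% called) all 5 genes had an adjusted p of 0.999.

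The difference between the male and the female response to AOM/DSS at 15 weeks was 3.82 for Itln1 (SE 1.18, adjusted p = 0.445) and 3.82 for Ang4 (SE 1.48, adjusted p = 0.523) on the log2 scale. At 9 weeks it was 2.80 for Itln1 (SE 1.17, adjusted p = 0.641). Without male vehicle replicate 1 the 15-week values were 3.56 (SE 1.19, adjusted p = 0.922) and 3.50 (SE 1.34, adjusted p = 0.972). No gene among all tested was called in either interaction (0.0%), while 2 of the 5 had an unadjusted p under 0.05 at 15 weeks and 1 at 9 weeks. By DESeq2, 0 of the 5 were called, with 3 and 1 under 0.05. A smaller difference than these errors allow was not detectable with 5 mice per group.

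**Figure D4:**
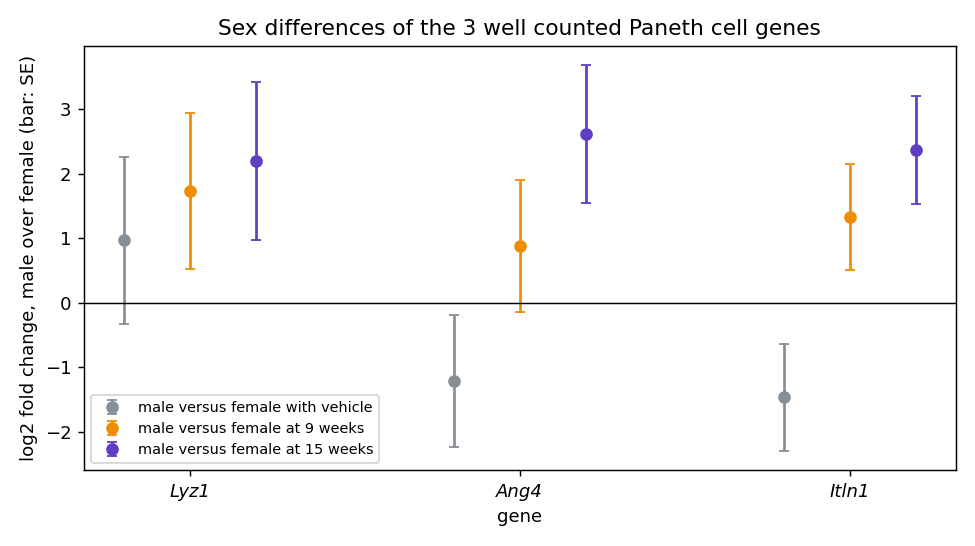
Log2 fold change of males over females, with its SE, for Lyz1, Ang4 and Itln1 in vehicle-treated mice and at 9 and 15 weeks of AOM/DSS. Ang4 and Itln1 lie at -1.21 and -1.46 with vehicle and at 2.61 and 2.36 at 15 weeks, and no value passed the test.

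Markers of other cells were read beside these values, where 5.65% of all tested genes were higher and 2.87% lower at 9 weeks, and 3.54% higher and 4.25% lower at 15 weeks. Of 9 macrophage genes, 1 (Cd14) rose at 15 weeks and 4 rose at 9 weeks, Lyz2 among them (log2 fold change 1.34, SE 0.38, adjusted p = 0.0153). Their summed level was at 79.4 to 298 CPM in the 10 libraries with Notum above the vehicle range and at 50.2 to 290 CPM in the other 10. Lyz2 was at 114.2 CPM in female 9-week replicate 1 and at 142.3 CPM in male 9-week replicate 2, where Lyz1 was at 6.93 and 4.98 CPM. Of 6 neutrophil genes, 4 rose at 9 weeks, S100a8 the most (8.03, SE 1.21), and 2 at 15 weeks. The summed level of the 6 was at 10.8 to 147 CPM against 7.93 to 206 CPM in the same sets. That sum had a median of 99.1 CPM with vehicle and 93.5 CPM with AOM/DSS. It thus did not follow the genes that rose, and does not compare neutrophils between the sets. Of 10 small-intestinal enterocyte genes, 6 were tested and 1, Sis, fell at 9 weeks. Apoa4 had at most 3 reads in any 9-week library and 2 in any 15-week library, Apoc3 at most 2 and 1, and Lct at most 6 and 8. These 3 do not stand for the list. The 10 genes together were at 23.7 to 206 CPM against 20.1 to 209 CPM, and at 9.55 to 374 CPM with vehicle. The 10 genes of goblet cells and deep crypt secretory cells were at 12791 to 22981 CPM against 17780 to 30547 CPM. Of them 1, Spink4, rose at both times (0.70, SE 0.21, and 0.80, SE 0.21). Of 10 smooth muscle and fibroblast genes, 8 fell at 15 weeks by edgeR and 3 by DESeq2, but only 1, Lum, did so by edgeR without male vehicle replicate 1. Without that library 7 macrophage genes rose at 9 weeks and 0 at 15 weeks by edgeR, with 1 at an unadjusted p under 0.05 there, and 1 Hox gene fell at 15 weeks. The smooth muscle and fibroblast genes were at 11.3 to 328 CPM against 10.4 to 320 CPM, and the 5 posterior Hox genes, of which 2 fell at 15 weeks, at 20.4 to 290 CPM against 22.5 to 366 CPM. Of 9 type 2 and IL-22 cytokine genes, 4 were tested and 0 were called at either time by edgeR or DESeq2, with 1 under an unadjusted p of 0.05 at 9 weeks and 0 at 15 weeks. Of 7 epithelial genes, 1 rose at 9 weeks, Krt20, and 2 at 15 weeks, Krt18 and Krt20, and their sum was at 8162 to 14874 CPM over all libraries. The part of these cells in the levels of the Paneth cell genes was not tested.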

How the data were processed

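Gene counts of 30 libraries, as deposited, were raw featureCounts values made by the authors from reads aligned to GRCm38 with STAR, and FPKM and TPM values, as deposited, were StringTie estimates of the authors in 1 file per library. Lines of a gene listed more than once were added (11 to 20 per file). The submitters' processing notes also list bcl2fastq 2.20.0.422. The members and gene lists were chosen with earlier results of these data known. Counts were fitted with edgeR 4.0.16 in R 4.3.3 (filterByExpr, TMM with factors from 0.832 to 1.10, quasi-likelihood test, 1 coefficient per group over all libraries), and DESeq2 1.42.0, which the paper used, was an alternative. A gene was called at an adjusted p under 0.05, a log2 fold change beyond 0.4 and a mean FPKM of at least 1 in a compared group. Log2 CPM had a prior count of 2. Named were the 5 genes and Notum, up to 4 called genes per list and comparison by size of change, markers of other cells beside a result, and the 4 genes of most similar rank, some of which are not reported here. Correlations used Python 3.11.15 and scipy 1.17.1. The fit was tested on simulated data. In 60 pairs of libraries within groups none was a copy. Replicates are separate mice. Sequences came from GENCODE transcripts and RefSeq.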

Additional observations from a re-analysis of the deposited data

Results flagged for a closer look

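Within groups of 5, 34 sets of values of the 5 genes and Notum were checked for a library far from the other 4 on the log2 CPM scale, and 5 had one. Chance gives about 1 in 20 among untied values, a rate that does not apply to 4 of the 5, in which 3 or 4 libraries were tied at 0 reads. Defa24 in female vehicle replicate 2 was at -1.45 on that scale (0.284 CPM) against a group median of 0 CPM, and Gm15284 in the same library was at -3.04 (0.0405 CPM, 1 read). Gm15284 was also far from its group in female 9-week replicate 2, at -0.022 (0.904 CPM), and in female 15-week replicate 3, at -0.25 (0.762 CPM), both against a median of 0 CPM. Itln1 in male vehicle replicate 2 was at 3.70 (12.9 CPM) against a group median of 0.25 (1.10 CPM).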

How the results depend on the processing

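The count of Paneth list genes called at 15 weeks, 3, became 7 with no filter on low counts (Defa17, Defa21, Defa22, Defa5, Gm15308, Mmp7 and Pla2g2a), and ran from 2 to 5 when 1 library was left out. At 9 weeks it ran from 2 to 4. The replicate numbers do not pair the mice (75 same-numbered pairs correlated at -0.58 to 0.47, and 4 of 30 libraries best with their own number). With the replicate number as a block the counts were 3 at 9 weeks, 2 at 15 weeks and 0 for the sexes at 15 weeks. No setting called a Paneth cell gene between the sexes at 15 weeks, by leaving out 1 library (0 to 0) or otherwise. In the libraries with Notum above the vehicle range, the rho of Gm15284 passed the threshold with group means removed (0.84), and with the 8 libraries highest in Notum, added after seeing the data, those of Defa24 (0.67) and Lyz1 (0.88) no longer did. Leaving out 1 library, the rho ran from 0.77 to 0.92 for Defa24 (6 of 10 lost the call), from 0.65 to 0.85 for Gm15284, from 0.92 to 0.98 for Lyz1, from 0.00 to 0.60 for Ang4 and from 0.30 to 0.90 for Itln1. Correlations within 1 time were not run, as each set held 5 libraries of a time. By TPM 1 library was above the vehicle range in Itln1. Others also lost that place by TPM. For Defa24 these were female 9-week replicate 5 and male 15-week replicate 3 (0.315 and 0.199 against 0.378 TPM). For Gm15284 they were female 15-week replicate 5 and male 15-week replicate 1 (both 0 TPM). Lyz1 lost male 15-week replicate 4 (3.05 against 4.67 TPM), and Ang4 male 15-week replicate 1 (333 against 440 TPM). Leaving out 1 library, the counts of libraries above every vehicle library ran from 10 to 14 for Defa24, 10 to 11 for Gm15284 and 8 to 10 for Lyz1. They ran from 2 to 4 for Ang4, 2 to 6 for Itln1 and 9 to 10 for Notum. The log2 fold changes ran from 2.19 to 3.43 and 1.75 to 3.42 for Lyz1 at 9 and 15 weeks, from -0.70 to 1.15 and 0.92 to 2.51 for Ang4, and from 0.19 to 1.20 and 1.02 to 2.06 for Itln1. The causes were not tested.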
